A study of Homo sapiens with 6 samples.

Results

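The BTG and TOB genes encode a small family of antiproliferative proteins, and 5 of them were followed here in HEK-293T cells that express reflectin A1 (RfA1). They are BTG1, BTG2, BTG3, TOB1 and TOB2, taken by gene symbol from a table of 16655 genes, and all 5 were among the 13002 genes that passed a filter on low counts. The genes were chosen by family membership after BTG3 had been selected on its measured difference between the RfA1 and GFP groups in these same libraries. Its RfA1 against GFP values, and those of its relatives, are therefore a description with no test.

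HEK-293T cells derive from human embryonic kidney and express the large T antigen of SV40. Cells of the control group (GFP, n = 3) received the no-load vector pEGFP-C1, and cells of the RfA1 group (RfA1, n = 3) received the same vector with the coding sequence of squid reflectin A1 behind GFP. Both groups were transfected transiently by lipofection and harvested 24 h later, so each library is a mixture of cells with and without plasmid. A change in the share of responding cells and a change in RNA per cell cannot be told apart in such a mixture. The labels do not say whether the replicates were separate cultures, and the spread between them may be partly technical.

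Proteins of this family share an amino-terminal BTG domain, which binds the CNOT7 and CNOT8 deadenylases of the CCR4-NOT complex. Through this contact they promote the shortening of poly(A) tails, and TOB proteins also bind the cytoplasmic poly(A)-binding protein. Forced expression of most members slows the passage from G1 into S phase. Several are early response genes whose short-lived mRNAs appear after stress or growth signals, and BTG2 is a well-known target of p53. BTG4, an oocyte member, was not analysed here.

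The genes lie on 5 chromosomes. On GRCh38, GENCODE places BTG3 on the minus strand at chr21:17593653-17612947, with 5 exons in its principal transcript. The others have 2 exons each and lie at chr12:92140278-92145897 (BTG1, minus strand), chr1:203305491-203309602 (BTG2, plus strand), chr17:50862223-50867978 (TOB1, minus strand) and chr22:41433492-41447023 (TOB2, minus strand). Coding lengths part the family, with 171 codons in BTG1 and 158 in BTG2, 252 in BTG3, and 345 in TOB1 and 344 in TOB2.

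Because the comparison is one of transcript levels, the stretches before the start sites of BTG3 and of its relatives BTG1 and BTG2 are shown, so that the member with the largest difference can be read beside members with small ones. They are RefSeq promoter sequences of GRCh38.p14, cut where the annotated transcripts begin, and cover chr21:17612948-17613151 on the minus strand for BTG3 (204 bases), chr12:92145898-92146096 on the minus strand for BTG1 (199 bases) and chr1:203305269-203305490 on the plus strand for BTG2 (222 bases). Capitals mark, on either strand, the GC box letters GGGCGG, the CCAAT box letters and the letters TGACG.
BTG3: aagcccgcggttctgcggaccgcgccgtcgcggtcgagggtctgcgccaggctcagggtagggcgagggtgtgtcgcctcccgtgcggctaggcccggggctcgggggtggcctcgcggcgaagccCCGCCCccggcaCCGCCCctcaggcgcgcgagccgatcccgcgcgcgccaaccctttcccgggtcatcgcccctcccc
BTG1: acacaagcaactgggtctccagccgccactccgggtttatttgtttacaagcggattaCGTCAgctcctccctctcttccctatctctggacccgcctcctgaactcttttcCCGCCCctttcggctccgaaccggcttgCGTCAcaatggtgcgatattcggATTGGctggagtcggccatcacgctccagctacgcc
BTG2: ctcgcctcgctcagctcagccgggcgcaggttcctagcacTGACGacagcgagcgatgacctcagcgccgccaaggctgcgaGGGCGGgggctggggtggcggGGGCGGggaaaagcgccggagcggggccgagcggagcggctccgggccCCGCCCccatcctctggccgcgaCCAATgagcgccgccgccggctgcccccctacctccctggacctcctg

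The BTG3 stretch held 2 GGGCGG letters and neither TGACG, the core of the cyclic AMP response element, nor CCAAT. The BTG1 stretch held 2 TGACG and 1 CCAAT, and that of BTG2 held 1 of each. The full RefSeq windows held 300 bases, 250 before the start site and 50 after it. In them CpG dinucleotides numbered 48 for BTG3, 34 for BTG2, 29 for TOB2 and 22 for BTG1. The 2 windows of TOB1 held 3 and 45. BTG3 lay at the percentile 98.4 of 35116 human windows and the richer TOB1 window at 97.1, so a high CpG count was not particular to BTG3. GGGCGG was found in a window of all 5 genes, for TOB1 in the richer window only, and in 45.0% of all windows. The TGACG letters and the CCAAT box were each found in the windows of BTG1 and BTG2 and in the richer window of TOB1. They were found in 24.6% and 34.6% of all windows. The AP-1 motif TGANTCA, the full element TGACGTCA, the p53 half-site and the CArG box of serum response factor were found before 0 of the 5 genes, against 7.71%, 1.85%, 6.63% and 1.29% of all windows. These 4 motifs were searched first, and the 3 marked in capitals were chosen after the sequences had been seen. TGACG also lies within TGACGTCA, and a match is a matter of letters only.

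Libraries held 10272304 to 11566287 counts. All 8 genes listed as expressed in HEK-293 lines, among them VIM, NEFL and PAX2, were above 1 TPM, and their summed level was 951 to 1138 TPM in GFP and 995 to 1199 TPM in RfA1 libraries. Of 8 measured markers of other cell types, 4 were above 1 TPM on average, with COL1A1 at 8.20 to 10.1 TPM, CD68 at 4.18 to 6.69 TPM and MYOD1 at 2.82 to 4.46 TPM over the 6 libraries, whereas PTPRC and PECAM1 were at or near 0. Their summed level was 17.1 to 23.0 TPM in GFP and 18.2 to 21.4 TPM in RfA1 libraries. RfA1 replicate 2 stood apart from the other RfA1 libraries. Its counts differed from those of RfA1 replicate 1 by a chi-square of 10.9 per degree of freedom, against 1.89 between RfA1 replicates 1 and 3, and it was nearer to GFP replicates 2 and 3, at 3.63 and 3.58. GFP replicate 1 also stood apart within its group, at 7.61 and 5.40 from GFP replicates 2 and 3, against 2.26 between those. It was nearer to RfA1 replicate 1, at 5.21, and was at 5.68 from RfA1 replicate 3. Transcript GC content also parted the libraries. On the log2 scale genes in the lowest quartile of GC content deviated from the GFP mean. The mean deviation was 0.16, -0.036 and 0.19 in RfA1 replicates 1, 2 and 3. In GFP replicates 1, 2 and 3 it was 0.083, -0.076 and -0.0077. Values without RfA1 replicate 2 and after a GC correction therefore stand beside the fold changes.

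To place the members against each other, their levels were compared in TPM, the authors' unit per transcript length. BTG3 was the most abundant in both groups, followed by TOB2, BTG2, TOB1 and BTG1. BTG3, a member known to restrain E2F1 and to bind the kinase CHK1, was at 39.3, 35.3 and 38.4 TPM in GFP replicates 1, 2 and 3, a mean of 37.7 ± 2.09 TPM (SD, n = 3). In RfA1 replicates 1, 2 and 3 it was at 66.1, 71.0 and 70.0 TPM, a mean of 69.0 ± 2.60 TPM (SD, n = 3). The lowest RfA1 library was well above the highest GFP library. In rank this moved BTG3 from the percentile 73.9 of the tested genes in GFP cells to 84.6 in RfA1 cells.

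TOB2, which like TOB1 links deadenylases to the poly(A)-binding protein, was at 27.0, 24.5 and 26.2 TPM in GFP replicates 1, 2 and 3 and at 33.4, 28.3 and 34.6 TPM in RfA1 replicates 1, 2 and 3. TOB1 was at 19.4, 18.0 and 19.2 TPM in GFP libraries and at 24.7, 19.5 and 25.1 TPM in RfA1 libraries, in the same order of replicates. In both TOB genes RfA1 replicate 2 was the lowest RfA1 library. It lay only just above the highest GFP library for TOB1.

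BTG2 was at 21.6, 23.0 and 23.9 TPM in GFP replicates 1, 2 and 3 and at 27.1, 23.4 and 29.6 TPM in RfA1 replicates 1, 2 and 3. Here the groups overlapped, since RfA1 replicate 2 was below GFP replicate 3. BTG1, a member abundant in resting cells, was the lowest of the family, with 17.2, 17.0 and 16.7 TPM in GFP replicates and 21.4, 17.6 and 21.7 TPM in RfA1 replicates 1, 2 and 3. In GFP cells each member was apart from its neighbour in the order in all libraries, with means from 37.7 TPM down to 16.9 TPM. In RfA1 cells BTG3 alone was apart from its neighbour, and TOB2 and BTG2, BTG2 and TOB1, and TOB1 and BTG1 overlapped.

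**Figure D1:**
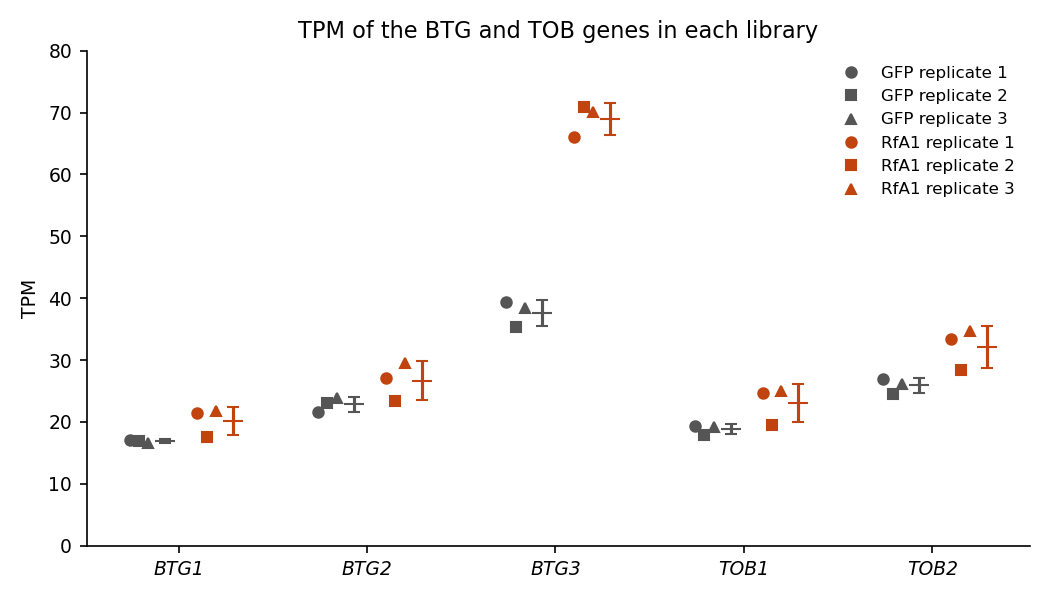
TPM of the 5 genes in each library, with GFP in grey and RfA1 in orange, replicates 1, 2 and 3 as circles, squares and triangles, and bars for the mean ± SD (n = 3). BTG3 was at 35.3 to 39.3 TPM in GFP and 66.1 to 71.0 TPM in RfA1 libraries, and in the other 4 genes RfA1 replicate 2 was the lowest RfA1 library.

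For the comparison of RfA1 with GFP cells, counts were scaled to a common library size (CPM) by the TMM method and fitted for all genes with edgeR's quasi-likelihood model. BTG3 was at 32.8, 31.4 and 32.9 CPM in GFP replicates 1, 2 and 3 and at 52.7, 62.3 and 55.8 CPM in RfA1 replicates 1, 2 and 3. The means were 32.4 ± 0.847 and 57.0 ± 4.92 CPM (SD, n = 3 each), a ratio of 1.76. Its fitted log2 fold change of 0.81 (standard error, SE, 0.093) was number 23 from the top among 13002 genes. The highest of the 3 RfA1 values was in replicate 2, the library in which its relatives were lowest.

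TOB2 was at 80.6, 77.6 and 79.8 CPM in GFP libraries and at 94.7, 88.9 and 97.0 CPM in RfA1 libraries, with a log2 fold change of 0.24 (SE 0.077). TOB1 was at 27.3, 26.7 and 27.5 CPM in GFP and at 33.4, 28.9 and 33.6 CPM in RfA1 libraries, with a log2 fold change of 0.24 (SE 0.097). In this fit the TOB genes had nearly the same fold change at different levels, at the percentiles 91.1 and 91.0 of all tested genes. After the GC correction they differed, at 0.29 for TOB2 and 0.15 for TOB1. For TOB2 the gap between the groups was 8.33 CPM, and for TOB1 it was 1.42 CPM.

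BTG1 was at 53.6, 55.8 and 53.2 CPM in GFP replicates 1, 2 and 3 and at 63.8, 57.7 and 64.3 CPM in RfA1 replicates 1, 2 and 3, with a log2 fold change of 0.19 (SE 0.084). BTG2 was at 38.1, 42.8 and 43.2 CPM in GFP and at 45.7, 43.2 and 49.5 CPM in RfA1 libraries, with a log2 fold change of 0.16 (SE 0.094). In BTG2 the highest GFP and the lowest RfA1 library were only 0.0056 CPM apart. These genes were at the percentiles 86.4 and 81.4 of the fold changes.

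By an adjusted p of 0.05, 1 of the 5 members, BTG3, passed in edgeR's test and in DESeq2, as did 0.0769% and 0.254% of all tested genes. In CPM all 5 members had every RfA1 library above every GFP library, and so did 9.86% of the tested genes. With total library size in place of TMM, and in TPM or FPKM, 4 of 5 were so separated and BTG2 overlapped, against 8.51%, 9.29% and 8.24% of the tested genes. Since the family was chosen with this contrast known, nothing is read from these counts.

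**Figure D2:**
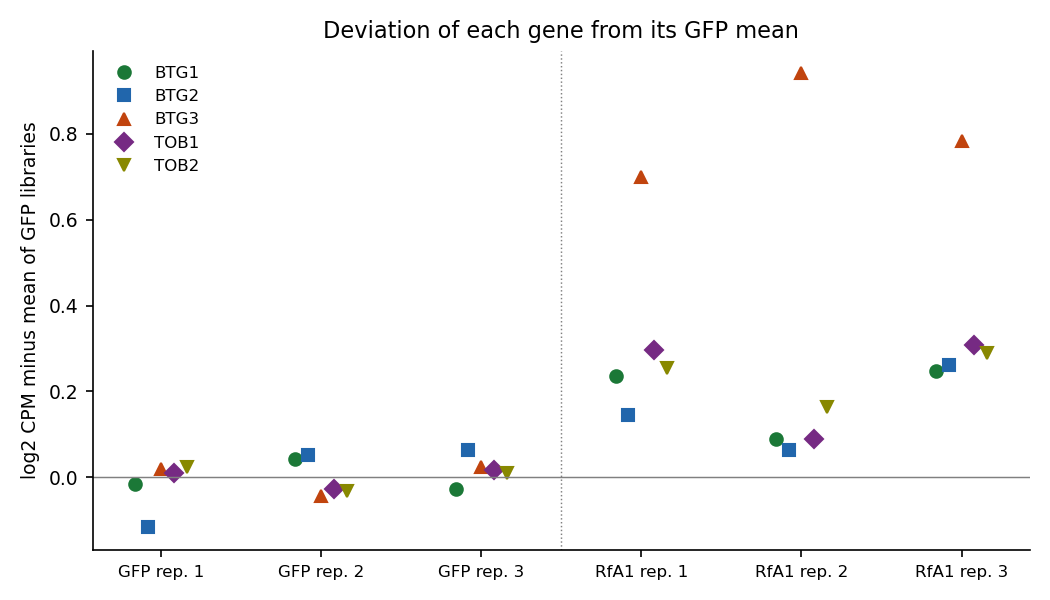
Difference between the log2 CPM of each gene in a library and its mean over the GFP libraries, by library, with a marker for each gene. In RfA1 replicate 2 BTG3 stood at 0.94 and the other 4 genes between 0.065 and 0.16, whereas in RfA1 replicates 1 and 3 the genes were closer together.

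The members divided by library as well as by group. In RfA1 replicates 1 and 3 the mean difference from GFP on the log2 scale was 0.24 for BTG1, 0.20 for BTG2, 0.30 for TOB1 and 0.27 for TOB2. In RfA1 replicate 2 it was 0.090, 0.065, 0.089 and 0.16 for the same genes. BTG3 went the other way, with 0.74 in replicates 1 and 3 and 0.94 in replicate 2. The contrast rests on 1 library, and in TPM BTG3 in replicate 2 was only just above replicate 3, at 71.0 against 70.0.

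Without RfA1 replicate 2 the log2 fold change was 0.74 for BTG3, 0.24 for BTG1, 0.20 for BTG2, 0.30 for TOB1 and 0.27 for TOB2. In that fit of edgeR 4 of the 5 members passed the adjusted p, all but BTG2, and 20.1% of all tested genes did. It kept RfA1 replicates 1 and 3, the libraries with the largest deviation of GC-poor genes (0.16 and 0.19). Group and GC content were not separated in it. RfA1 replicate 2 was the lowest RfA1 library for BTG1, BTG2, TOB1 and TOB2, so leaving it out raised their fold changes by construction. With a correction for GC content, added after seeing the data, BTG3 had a log2 fold change of 0.75 and TOB2 one of 0.29. These passed the adjusted p, which 1.58% of the genes in that fit did. The GC correction lowered BTG1 to 0.083 and TOB1 to 0.15, and BTG2 was at 0.15. The transcripts of BTG1 and TOB1 are the poorest of the family in GC, with 38.7% and 42.1%, against 44.2% for BTG3, 50.3% for BTG2 and 54.1% for TOB2. The part of GC content in these differences was not tested further. BTG3 did not pass in the 3 fits that left out a GFP library, in which its log2 fold change was 0.79 to 0.83 and 0 or 1 of all genes passed, 0.00763% without GFP replicate 1 and 0% without either of the others.

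**Figure D3:**
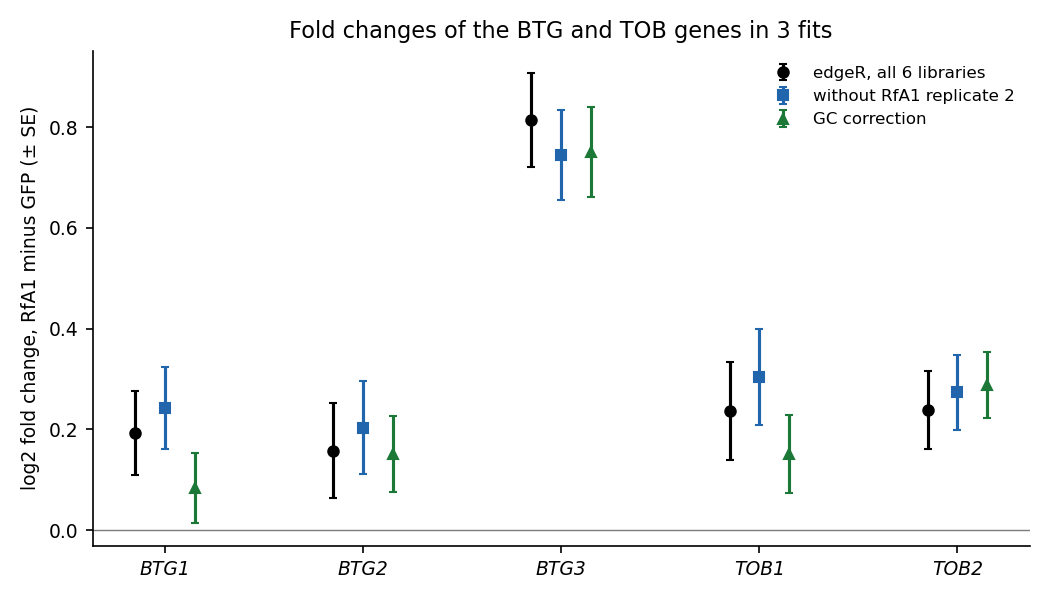
Log2 fold changes (RfA1 minus GFP, bars ± standard error) of the 5 genes in edgeR fits of all 6 libraries, without RfA1 replicate 2 and with the GC correction. BTG3 stood at 0.74 to 0.81 in the 3 fits and its relatives at 0.083 to 0.30.

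A ratio between members within a library does not depend on how the library is scaled. A trend with GC content need not cancel in it, since the transcripts differ, with 44.2% GC in BTG3 and 54.1% in TOB2. The log2 fold changes of BTG3 and TOB2 were 0.81 and 0.24 without the GC correction and 0.75 and 0.29 with it. On the log2 scale the TPM of BTG3 relative to the summed TPM of the other 4 genes was -1.11, -1.22 and -1.16 in GFP replicates 1, 2 and 3. It was -0.69, -0.32 and -0.66 in RfA1 replicates 1, 2 and 3. RfA1 replicate 2 stood highest. BTG3 had been selected on its difference between these groups, so the shift in the ratio is a description with no test. Against single relatives the smallest shift was toward TOB2, with log2 ratios of 0.54, 0.53 and 0.55 in GFP and 0.98, 1.32 and 1.02 in RfA1 libraries. BTG3 thus took 30.8% ± 0.804 of the TPM of the 5 genes in GFP cells and 40.5% ± 3.43 in RfA1 cells (SD, n = 3 each). The summed TPM of the 5 genes was 122 ± 3.83 in GFP and 171 ± 10.7 in RfA1 cells, and that of the 4 genes without BTG3 was 84.5 ± 1.84 and 102 ± 11.7 (SD, n = 3 each). For these 4 genes RfA1 replicate 2, at 88.8 TPM, was close to the highest GFP library, at 85.9 TPM.

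**Figure D4:**
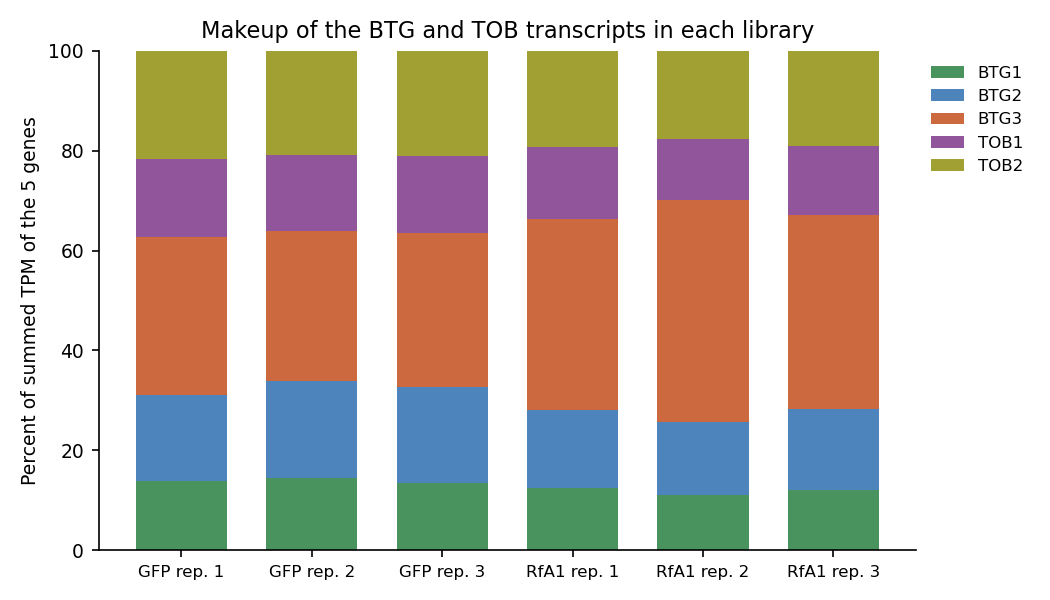
Percent of the summed TPM of the 5 genes that each gene takes, in stacked bars from 0 to 100 for each library. BTG3 took 30.0% to 31.6% in GFP and 38.3% to 44.4% in RfA1 libraries, most in RfA1 replicate 2.

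The depth behind these values was 302 to 1041 counts per library. Counting error alone gives coefficients of variation from 3.17% for TOB2 in RfA1 cells to 5.72% for TOB1 in GFP cells. Between GFP libraries CPM varied by 1.61% for TOB1, 1.98% for TOB2, 2.59% for BTG1 and 2.62% for BTG3, all below their counting error, and by 6.91% for BTG2. Between RfA1 libraries it varied by 4.45% for TOB2 up to 8.64% for BTG3, above the counting error of each gene. In these CPM values the RfA1 libraries spread more than the GFP libraries for BTG1, BTG3, TOB1 and TOB2. BTG2 varied alike in both, with 6.95% in RfA1 libraries. With 3 libraries a group, and most GFP spreads below what counting alone gives, no difference in unevenness between the groups is read from this.

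Reads of close relatives can be divided by a counting tool. The estimated counts of the 5 members were whole in all 6 libraries (within 1e-09), whereas 7.39% to 8.02% of all values in a library were not. Of the stretches of 100 bases in a GENCODE transcript of each gene, 0% in BTG2 and TOB1 recurred in transcripts of another gene. In BTG3 11.1% recurred in the antisense transcript BTG3-AS1, in BTG1 10.3% in LINC01619 and AC025164.1, and in TOB2 1.48% in AC007228.1. No stretch was shared between members. Whether strand was used in counting is not given in the sources used here, so reads of BTG3 and BTG3-AS1 cannot be told apart there. The transcript length that counts and FPKM imply was 1166 to 1181 bases for BTG3, with GFP and RfA1 libraries overlapping.

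The 3′ ends of the mRNAs were compared for AU-rich letters, since members of the family are known for short-lived mRNAs. The pentamer ATTTA occurred 5 times in the 3′ untranslated region of BTG1, 4 times in TOB1, 3 times in BTG3 and TOB2 and 2 times in BTG2. Among all genes 27.0% had at least as many as BTG1 and 39.6% at least as many as BTG3. The regions differ in length, from 440 bases in BTG3 to 3802 bases in BTG1.

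Genes whose pattern over the 6 libraries was most like that of BTG3 were sought by the root-mean-square difference of centred log2 CPM, among the 10510 genes whose log2 CPM averaged 3 or more. The closest was CSRNP1, a nuclear protein of the early response, with a difference of 0.049. It was at 18.8, 16.5 and 17.9 CPM in GFP and at 28.3, 33.6 and 28.7 CPM in RfA1 replicates 1, 2 and 3. Next were CCN1, a secreted matrix protein, with 0.095, ATF3, a stress-induced transcription factor, with 0.097, DUSP1, a MAP kinase phosphatase, with 0.12, and DNAJB9, an ER co-chaperone, with 0.13. The order of the RfA1 libraries was not shared by all 5, since RfA1 replicate 2 was the highest for CSRNP1, CCN1 and ATF3, the lowest for DUSP1 (70.7, 67.0 and 77.1 CPM in RfA1 replicates 1, 2 and 3) and below replicate 3 for DNAJB9. The median of all 10510 genes was 0.42. BTG1, BTG2, TOB1 and TOB2 were at 0.33, 0.35, 0.32 and 0.30. These relatives were nearer to BTG3 than the median gene, but above the 1st percentile of 0.26. With 6 libraries in 2 groups the likeness rests mostly on the difference between the groups.

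To see the pathway in which these proteins act, lists of related genes were followed in the same all-gene fit. The lists were chosen with earlier results of these data known, so their counts and medians are a description with no set test. The deadenylase list, with the CCR4-NOT and PAN2-PAN3 subunits and poly(A)-binding proteins, had 18 tested genes. Of these 0 passed the adjusted p in edgeR's test and 0 in DESeq2, and 2 were higher and 0 lower at an unadjusted p of 0.05, which 13.9% of all tested genes reached. On the log2 scale the median difference over these 18 genes was 0.029, against -0.0024 over all tested genes. CNOT7 and CNOT8 are the direct partners of the family. CNOT7 was at 51.0 ± 3.56 CPM in GFP and 57.5 ± 7.89 CPM in cells with RfA1 (SD, n = 3 per group), and its log2 fold change was 0.17 (SE 0.11, edgeR adjusted p = 0.477). CNOT8 was at 40.1 ± 3.29 and 45.4 ± 5.86 CPM, and its log2 fold change was 0.18 (SE 0.11, edgeR adjusted p = 0.466). Both overlapped between the groups. The smallest p-values of the list belonged to the other catalytic subunits, CNOT6 and CNOT6L, with log2 fold changes of 0.27 and 0.28 (edgeR adjusted p = 0.324 and 0.345). Without RfA1 replicate 2, 5 of the 18 genes passed, in a fit where 20.1% of all tested genes did. After the GC correction 0 genes of the list passed, against 1.58% of all genes in that fit. The corrected log2 fold changes were 0.037 for CNOT7, 0.11 for CNOT8, 0.17 for CNOT6 and 0.15 for CNOT6L.

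The mRNA decay list, with decapping factors, LSM proteins and proteins that bring decay enzymes to AU-rich mRNAs, had 30 tested genes of 31. Of these 0 passed the adjusted p in edgeR's test and 0 in DESeq2. At an unadjusted p of 0.05, which 13.9% of all tested genes reached, 5 were higher and 0 lower. The median was 0.058. DDX6, a helicase that joins deadenylation to decapping, was at 44.8 ± 1.58 CPM in GFP and 56.1 ± 6.19 CPM in RfA1 cells, and its log2 fold change was 0.33 (SE 0.098, edgeR adjusted p = 0.253). LSM6, of the ring that binds shortened tails, had a log2 fold change of 0.34 (SE 0.10, edgeR adjusted p = 0.254). These 2 had the smallest p-values of the list. In both, every RfA1 library was above every GFP library, as in 8 of the 30 and in 9.86% of all tested genes. In the fit that left out RfA1 replicate 2, where 20.1% of all tested genes passed, 5 of the 30 did. After the GC correction 1 gene of the list passed, against 1.58% of all genes in that fit. The corrected log2 fold changes were 0.23 for DDX6 and 0.24 for LSM6.

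Of 13 other known partners 0 passed the adjusted p in edgeR's test or in DESeq2. At an unadjusted p of 0.05, which 13.9% of all tested genes reached, 1, SMAD1, was higher. Its log2 fold change was 0.32 (edgeR adjusted p = 0.316). PRMT1, the arginine methyltransferase bound by BTG1 and BTG2, was at 412 ± 13.2 CPM in GFP and 368 ± 30.0 CPM in RfA1 cells, and its log2 fold change was -0.17 (SE 0.082, edgeR adjusted p = 0.385). Its groups overlapped. The median of the list was 0.063. In the fit that left out RfA1 replicate 2, where 20.1% of all tested genes passed, 3 of the 13 did. After the GC correction 0 genes of the list passed, against 1.58% of all genes in that fit. The corrected log2 fold changes were 0.28 for SMAD1 and -0.050 for PRMT1.

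The G1 to S list, the step of the cycle that BTG and TOB proteins are known to slow, had 27 tested genes. At an unadjusted p of 0.05, which 13.9% of all tested genes reached, 4 were higher and 1 lower. The lower gene was E2F1, with a log2 fold change of -0.24 (SE 0.10, edgeR adjusted p = 0.349). Of the 27, 0 passed the adjusted p in edgeR's test or in DESeq2. The median was 0.11, and 20 of the 27 lay above 0, as did 49.5% of all tested genes. The list holds drivers and inhibitors of this step, so these values give no direction for the cycle. CCNE2, a cyclin of the S phase entry, was at 19.1 ± 0.229 CPM in GFP and 26.8 ± 1.24 CPM in RfA1 cells, and its log2 fold change was 0.49 (SE 0.096, edgeR adjusted p = 0.156). CDKN1A, which encodes the inhibitor p21, was at 25.7 ± 3.46 and 33.2 ± 0.475 CPM, and its log2 fold change was 0.37 (SE 0.11, edgeR adjusted p = 0.25). Both genes, which had the smallest p-values of the list, had every RfA1 library above every GFP library. So did 9 of the 27 and 9.86% of all tested genes. After the GC correction 3 of the 27 genes passed, 2 higher and 1 lower, as did 1.58% of all genes in that fit, with CCNE2 (log2 fold change 0.37, edgeR adjusted p = 0.0489) and CDKN1A (0.49, adjusted p = 0.00917) among them. Without RfA1 replicate 2, 8 of the 27 passed, against 20.1% of all tested genes.

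The growth arrest list holds GADD45, KLF, FOXO, SESN, PLK and IER genes, which are induced by stress or in resting cells, and 25 of 26 were tested. Of these 8 were higher and 0 lower at an unadjusted p of 0.05, which 13.9% of all tested genes reached, 0 passed the adjusted p in edgeR's test or in DESeq2, and the median was 0.12. This list had the highest median of the 5. PLK3, a kinase of the stress response, was at 5.89 ± 0.0976 CPM in GFP and 8.66 ± 1.09 CPM in RfA1 cells, and its log2 fold change was 0.55 (SE 0.15, edgeR adjusted p = 0.221). IER3, an early response gene, was at 10.9 ± 1.81 and 15.3 ± 0.893 CPM, and its log2 fold change was 0.49 (SE 0.14, edgeR adjusted p = 0.234). After the GC correction 5 of the 25 genes passed, all higher, as did 1.58% of all genes in either direction, with PLK3 (0.70, edgeR adjusted p = 0.0123) and IER3 (0.61, adjusted p = 0.00917) among them. In the fit that left out RfA1 replicate 2, where 20.1% of all tested genes passed, 6 of the 25 did.

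**Figure D5:**
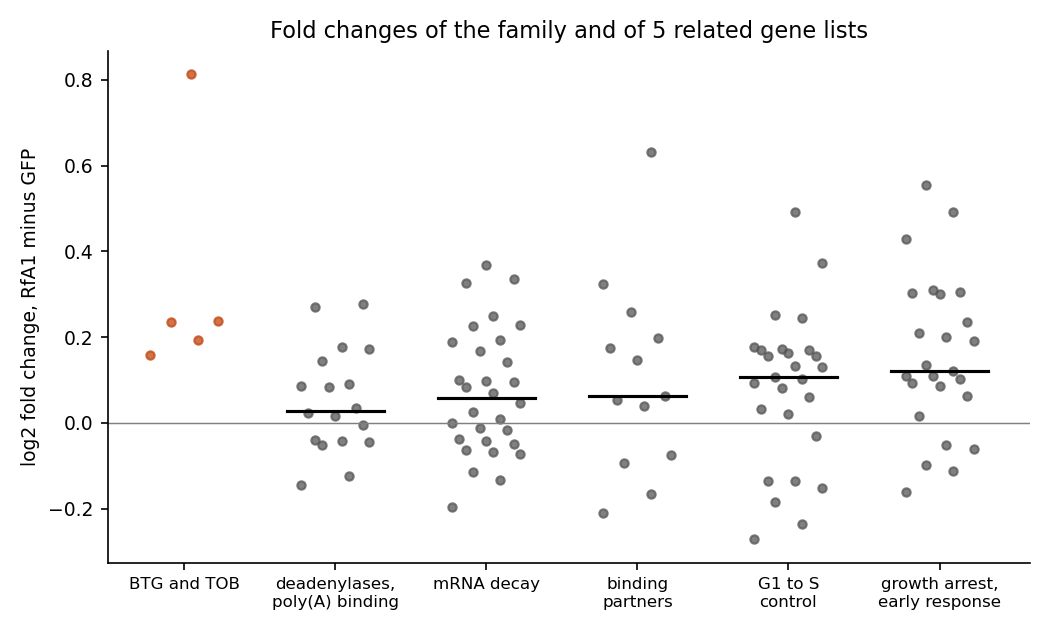
Log2 fold changes (RfA1 minus GFP, all 6 libraries) of the 5 family members in orange and of the genes of 5 lists in grey, with a line at the median of each list. BTG3, which had been selected on its difference between these groups, was at 0.81, and the list medians were 0.029 to 0.12.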

How the data were processed

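RNA-seq libraries of HEK-293T cells with GFP (n = 3) or GFP-tagged RfA1 (n = 3) were grouped and numbered by the sample labels. The authors deposited estimated counts without normalization, TPM scaled to a common total in each library and FPKM, for 16655 genes. The submitters' processing notes name HISAT and GRCh38.p13, and the counting tool is not given in the sources used here. Averages over replicates were not used.

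Counts were rounded, filtered with filterByExpr (minimum count 10, minimum total 15), normalized by TMM and tested two-sided in R 4.3.3 with edgeR 4.0.16 (robust quasi-likelihood fit), and p-values of the 13002 genes were adjusted by Benjamini and Hochberg's method. Standard errors were derived from the F statistic. The alternatives were DESeq2 1.42.0 without independent filtering, 2 other normalizations, 2 other filters, the replicate number as a block, limma 3.58.1 on log2(TPM + 1) and each library left out. Chosen after the data had been seen was a GC correction (each library's trend with transcript GC content, fitted by a spline of 5 degrees of freedom), alone and with the block. GC content came from GENCODE 29, where 98.3% of the genes were matched.

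The members and lists were chosen with earlier results of these data known. Named in each list were genes past the adjusted p or else the 2 with the smallest p, beside CNOT7, CNOT8 and PRMT1, and the 5 genes most like BTG3. E2F1 was named in addition, as the lower gene of the G1 to S list. Scripts were tested on simulated data. Figures were drawn with matplotlib 3.10.9. Promoters were matched by symbol in RefSeq for all 5 genes, and TOB1 had 2 windows. Protein sequences were not used here.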

Additional observations from a re-analysis of the deposited data

How the results depend on the processing

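All 5 members kept a positive log2 fold change in each of the 15 alternatives, from 0.74 to 0.87 for BTG3, 0.083 to 0.24 for BTG1, 0.10 to 0.21 for BTG2, 0.15 to 0.30 for TOB1 and 0.21 to 0.30 for TOB2. TOB2 was at 0.30 with limma on log2(TPM + 1), and BTG1 at 0.083 with the GC correction and 0.086 with the correction and the block. Members past the adjusted p numbered 2 with the GC correction, alone or with the block (BTG3 and TOB2), and 0 to 4 when a library was left out. Of all genes, 10 passed in edgeR as reported (8 higher, 2 lower), 33 in DESeq2 (17 higher, 16 lower), 6 with upper-quartile normalization (4 higher, 2 lower), 20 without the filter (12 higher, 8 lower), 4 in limma (all higher), 204 with the GC correction (150 higher, 54 lower), 455 with the correction and the block (305 higher, 150 lower), and 0 to 2636 when a library was left out, the most without RfA1 replicate 2 (1124 higher, 1512 lower). BTG3 took 30.4% to 31.2% of the family's TPM in GFP and 38.5% to 41.6% in RfA1 cells when a library was left out, and the order of the members was the same in FPKM.

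With the replicate number as a block 625 genes passed (309 higher, 316 lower), and 1 member, BTG3, as without it. In the lists the block gave 1 decay gene, 3 G1 to S genes and 6 growth arrest genes past the adjusted p, the GC correction 1, 3 and 5, and both together 2, 3 and 8. Leaving out a library gave 0 to 5 deadenylase, 0 to 5 decay, 0 to 3 partner, 0 to 8 G1 to S and 0 to 6 growth arrest genes. The cause of these differences was not tested. Deviations of same-numbered libraries correlated by 0.17, 0.32 and -0.14 across genes, so the numbers were not taken as pairs. GFP replicate 1 correlated best with RfA1 replicate 3 (0.35).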
